A study of Oryctolagus cuniculus with 8 samples.

Results

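The prostaglandin genes measured here are PTGS1, PTGS2, PTGDS, PTGER2, PTGER4 and PTGR1, 6 of the 680 genes that could be named, read by 22 of the 43603 different probes on each array. The members were all probes, controls left out, whose deposited RefSeq accession belonged to 1 of these rabbit genes. PTGS1 and PTGDS had 1 probe each, PTGS2 had 3, PTGR1 had 5, and PTGER2 and PTGER4 had 6 each. The deposited files mark whether a spot is well above background, and a probe was tested if both arrays of 1 or more of the 4 groups carried that mark. This kept 18 of the 22 probes and at least 1 probe of each of the 6 genes, against 28854 probes over the whole array. The other 4 probes all belonged to PTGER2 and were not well above background on any array.

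RNA from cultured Dutch rabbit cells was measured on 8 Agilent arrays of 1 colour, 1 array a sample. The labels gave 4 groups of 2 samples and, apart from reprogramming, state no genetic modification. The ES group held the embryonic stem cell lines rdES4 and rdES2-1, which come from the early embryo. Induced pluripotent stem (iPS) cells are body cells reprogrammed to resemble ES cells, and each origin was represented by 1 line: iPS-L1 from liver cells, at passage 7 (early) and 23 (late), and iPS-S1 from stomach cells, at passage 6 (early) and 22 (late). The somatic group held 1 culture of liver cells and 1 of stomach cells. ES and iPS cells grew in stem cell medium and somatic cells in somatic cell medium, so cell type and medium cannot be told apart. The labels name neither the reprogramming factors nor separate animals or cultures, so p-values measure only the spread between these samples, which may be technical, and the somatic spread includes the difference between 2 tissues.

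Prostaglandins are short-lived lipid signals made from arachidonic acid, which phospholipases release from membranes. The cyclooxygenases PTGS1 and PTGS2 convert arachidonic acid to prostaglandin H2, from which terminal synthases such as PTGDS make the individual prostaglandins. PTGS1 is known as the constitutive form, which protects the stomach lining, and PTGS2 as the form induced by cytokines and growth factors in fibroblasts, smooth muscle and macrophages. PTGER2 and PTGER4 are the prostaglandin E2 receptors EP2 and EP4, both of which raise cyclic AMP, and PTGR1 reduces 15-keto prostaglandins, a step of their inactivation.

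Levels are log2 signals minus the 75th percentile of the array, so that 0 is the signal at that percentile. The 75th percentile lay between 274.0 and 341.7 intensity units on the 6 ES and iPS arrays and at 163.5 and 154.7 on the liver and stomach cell arrays. Between 62.39% and 64.66% of probes were well above background on the ES and iPS arrays, against 57.79% and 58.43% on the somatic arrays. Between iPS and somatic cells, 51.3% of the called probes were higher in iPS cells on the main scale, 82.5% with no scaling, 33.1% after normexp background correction and 38.7% with no filter on dim probes. For ES against somatic cells these shares were 53.6%, 81.4%, 33.9% and 40.0%. Relative to the main scale, where the median of all probes was 0.02 for iPS and 0.07 for ES cells, no scaling moved the median difference to 1.03 and 0.94, and normexp moved it to -0.40 and -0.33. Slide 1 held rdES4, both liver-line arrays and the liver cells, slide 2 held rdES2-1 and the stomach cells, and slide 3 held both stomach-line arrays.

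Fibroblast, mesenchyme, smooth muscle and macrophage markers were higher in the somatic group, whereas the epithelium, hepatocyte and gastric lists did not move as one. Of all tested probes, 32.4% were called lower and 34.2% higher in iPS than in somatic cells. For ES cells these shares were 29.7% and 34.2%. All 4 tested fibroblast and mesenchyme markers (CAV1, DCN, MGP and MMP2) were lower in iPS and in ES cells, and their summed level, in units of the 75th percentile signal, was 1.88 to 3.139 on the ES and iPS arrays against 105.7 to 198.1 on the somatic arrays. The 4 tested smooth muscle markers were lower as well, with sums of 25.22 to 49.31 against 98.08 to 253.7. MYH11, also of that list, was not tested, being well above background only in liver cells and rdES2-1. DCN and, of the smooth muscle list, TPM2 were tested only through the somatic group, so their direction is no separate support. The macrophage marker CD14 stood at 0.06137 to 0.09719 against 0.5247 to 1.109. Of the 2 tested epithelium markers, CXADR was higher in iPS (5.29) and ES cells (5.84) and CLDN1 was not called. Their sums were 9.019 to 15.45 on the ES and iPS arrays against 0.1747 to 0.4651 on the somatic arrays. Of the 2 tested erythroid markers, HBA was lower in iPS and ES cells and HBB2 was not called. POU5F1 and PODXL, the pluripotency markers that could be named, were both higher, with sums of 261.7 to 353.3 against 0.1336 to 5.152. ALB, which defines hepatocytes, and ATP4B, of the acid-secreting gastric cell, were not well above background on any array, the liver and stomach cultures included. Other markers of those lists were measured: APOE, HP, HPX, RBP4, TF and PGC were well above background on all 8 arrays and ATP4A on 7. Of the 5 tested hepatocyte markers, RBP4 was lower and TF higher in both iPS and ES cells and 3 were not called. Of the 2 tested gastric markers, ATP4A was called higher in both comparisons and PGC in ES cells, with no test of that difference. The part of all these cell types in the prostaglandin results was not tested, and fewer cells of a type and less RNA per cell cannot be told apart in such bulk samples.

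The somatic cultures had much higher levels of both cyclooxygenases and of the EP4 receptor than every ES and iPS array, while the levels of PTGR1 spanned 1.02 log2 units over all 8 arrays. Of the 6 genes, each read by its brightest probe, 5 were lower in iPS than in somatic cells (PTGS1, PTGS2, PTGDS, PTGER2 and PTGER4) and PTGR1 was not called, where 66.6% of all tested probes were called in either direction, 34.2% higher and 32.4% lower. ES cells gave the same count, 5 lower and 1 not called, against a background of 63.9% called, 34.2% higher and 29.7% lower. The median difference over the 6 genes was -2.67 for iPS and -2.61 for ES cells on the log2 scale. Both comparisons used the same somatic samples, so they are not independent of each other. The lower PTGER2 call depended on the scaling between arrays, as described with that gene.

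**Figure D1:**
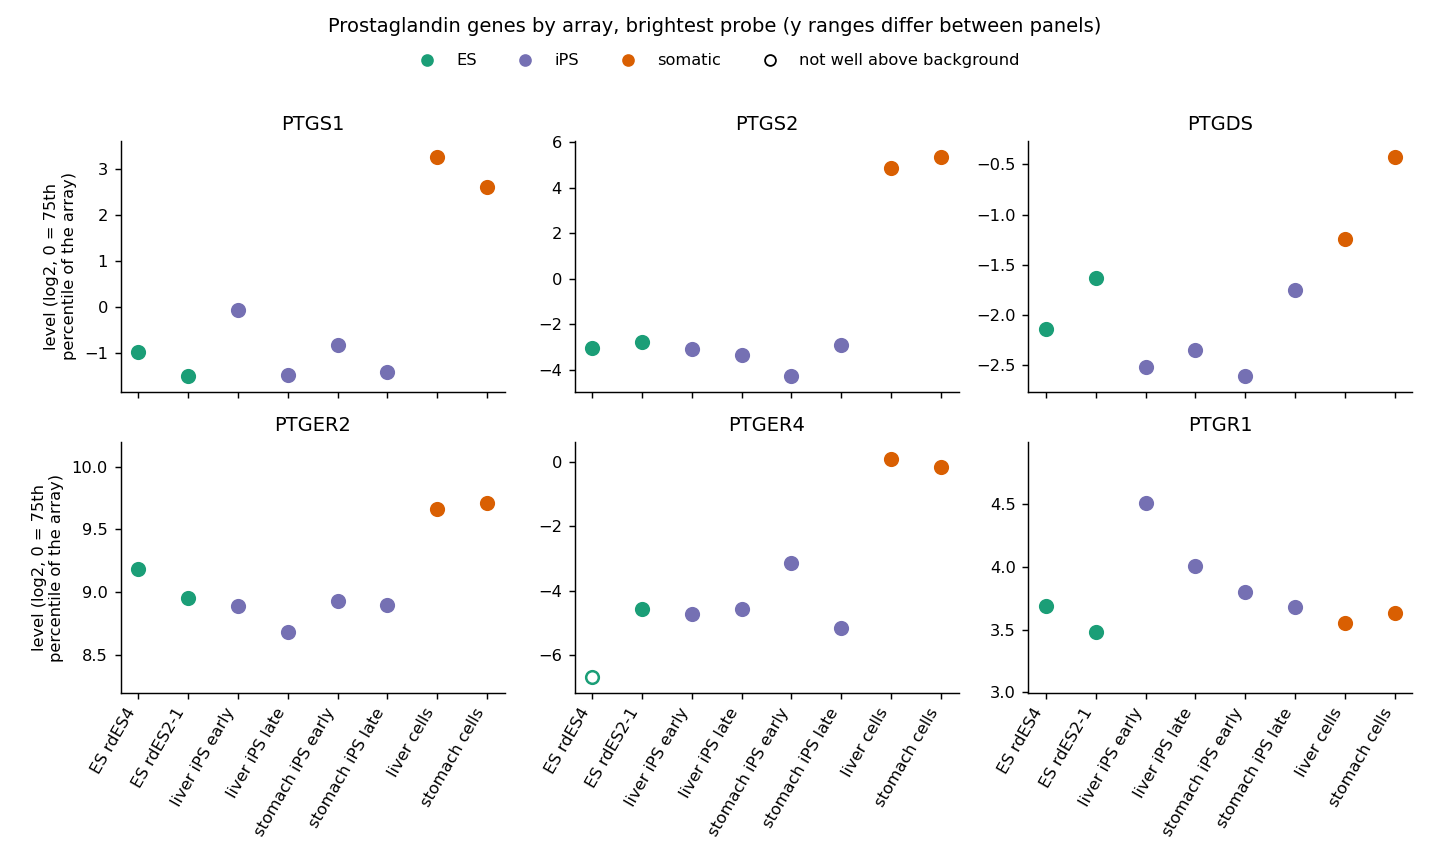
Level of each gene by its brightest probe on the 8 arrays (log2 relative to the 75th percentile of that array); points are single arrays coloured by ES, iPS or somatic group, and open points are not well above background. PTGS2 stood at 4.89 and 5.34 in somatic cells and at -2.79 or below elsewhere, whereas the PTGR1 values spanned 1.02 log2 units in all.

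PTGS2 (NCBI gene 100009248), the inducible cyclooxygenase, had the largest difference of the 6 genes in both comparisons. By probe A_04_P000852 its level was 4.89 in liver cells and 5.34 in stomach cells, -3.06 in rdES4 and -2.79 in rdES2-1, -3.08 and -3.36 in the liver iPS line at early and late passage, and -4.25 and -2.89 in the stomach line. Every somatic value lay above every pluripotent value, and the early stomach iPS array was the lowest. The 3 pluripotent groups lay close together, in the order ES, late iPS and early iPS, with neighbours overlapping in range. The mean was 5.12 ± 0.32 (SD, n = 2 samples) in somatic cells, -2.92 ± 0.19 (n = 2 lines) in ES cells and -3.39 ± 0.25 (n = 2 lines, both passages averaged) in iPS cells. The difference from somatic cells was -8.51 ± 0.23 (SE) for iPS cells, a 364.4-fold lower signal, with an adjusted p of 7.12e-05 in limma's moderated test. For ES cells it was -8.04 ± 0.23, 262.9-fold lower, with an adjusted p of 6.75e-05 in limma.

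Of the other PTGS2 probes, the brighter gave the same direction. Probe A_04_P000851 was well above background on all 8 arrays and read -7.89 ± 0.25 for iPS and -7.98 ± 0.25 for ES against somatic cells. Probe A_04_P041862 was well above background only in the somatic cells and was tested only through them, so its direction is no separate support. Its fold is a bound: at least 58.4-fold lower in iPS and at least 62.1-fold lower in ES cells. Such bounds set the mean of the bright group against, per dim array, the higher of the probe's own signal and the lowest signal well above background. Within slides the differences by the brightest probe were -8.11 for the liver iPS line and -7.95 for rdES4 on slide 1, and -8.13 for rdES2-1 on slide 2. After normexp correction they were -6.72 for iPS and -6.49 for ES cells, and with no scaling -7.50 and -7.16.

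PTGS1 (NCBI gene 100009407), the constitutive cyclooxygenase, followed the same order between somatic and pluripotent cells with a smaller distance. Its only probe, A_04_P001156, was well above background on all arrays and stood at 3.25 in liver and 2.60 in stomach cells. It stood at -0.98 in rdES4, -1.50 in rdES2-1, -0.08 and -1.48 in the liver iPS line at early and late passage, and -0.84 and -1.42 in the stomach line. The somatic values were the highest and the early liver iPS array came next, well apart from them. Early iPS cells ranked above ES cells without overlap, whereas ES and late iPS cells overlapped.

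The PTGS1 mean was 2.92 ± 0.46 (SD, n = 2) in somatic cells against -0.95 ± 0.25 (n = 2 lines) in iPS and -1.24 ± 0.37 (n = 2) in ES cells. The difference was -3.87 ± 0.31 (SE), 14.7-fold lower, for iPS cells, with an adjusted p of 0.00048 in limma. For ES cells it was -4.16 ± 0.31, 17.9-fold lower, with an adjusted p of 0.00041 in limma. Both cyclooxygenases were thus lower in each iPS line than in the cultured cells of the same tissue. PTGS1 differed by -4.03 in the liver line and -3.73 in the stomach line. The same contrasts for PTGS2 were -8.11 and -8.91. The labels do not say that the lines came from these cultures, and the stomach line and stomach cells were on different slides. With no scaling the PTGS1 difference was -2.86 for iPS and -3.29 for ES cells, and after normexp -3.09 and -3.32, all of them called.

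**Figure D2:**
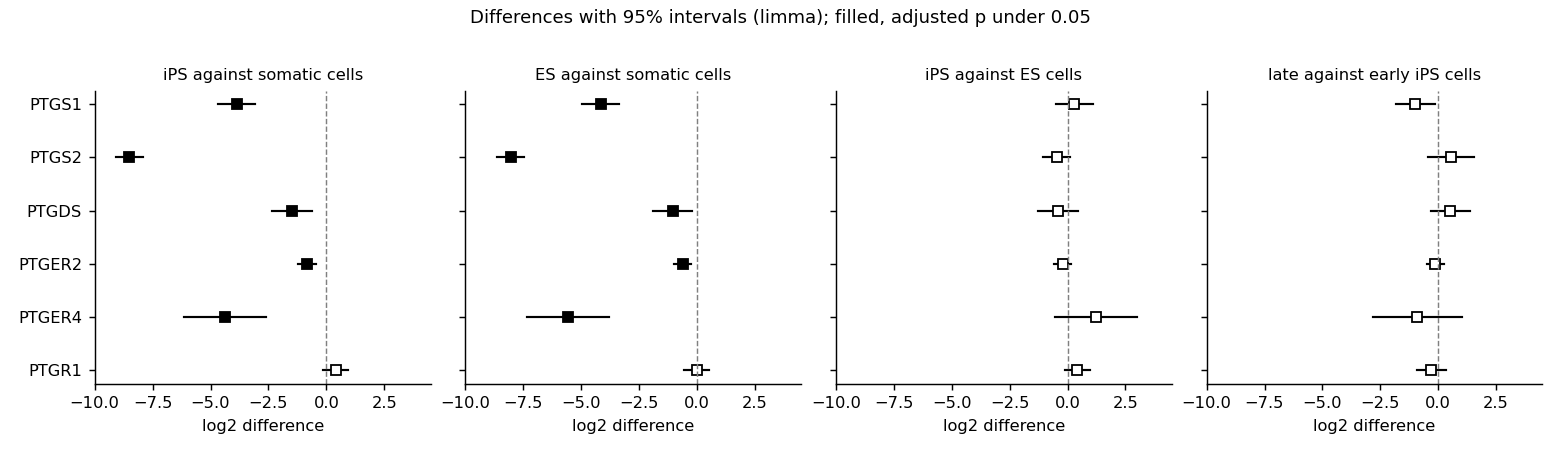
Log2 difference of each gene by its brightest probe in the 4 comparisons, with the 95% interval from limma as a line; filled squares have an adjusted p under 0.05. Against somatic cells, 5 of 6 squares are filled to the left of 0 for iPS and for ES cells, and none is filled between iPS and ES cells or between late and early passage.

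PTGDS (NCBI gene 100009453) makes prostaglandin D2 from prostaglandin H2 and is also a secreted lipid carrier. Its only probe, A_04_P000611, was dim but well above background on all 8 arrays, at -1.24 in liver cells and -0.43 in stomach cells. It read -2.14 in rdES4, -1.63 in rdES2-1, -2.52 and -2.35 in the liver iPS line at early and late passage, and -2.60 and -1.75 in the stomach line. The stomach cells were the highest and both early iPS arrays the lowest. Somatic and pluripotent values did not overlap, but the gap between liver cells and rdES2-1 was narrow. ES and late iPS cells overlapped, and early iPS cells lay below both.

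The PTGDS mean was -0.83 ± 0.57 (SD, n = 2) in somatic cells, -2.30 ± 0.19 (n = 2 lines) in iPS cells and -1.88 ± 0.37 (n = 2) in ES cells. It was 2.77-fold lower in iPS cells, a difference of -1.47 ± 0.33 (SE), with an adjusted p of 0.0133 in limma, and of -0.46 with an adjusted p of 0.263 when arrays were not scaled. In ES cells the difference was -1.05 ± 0.33, 2.07-fold lower, with an adjusted p of 0.0407 in limma. This ES call was lost with quantile normalization (adjusted p = 0.0535), no scaling (-0.18, 0.656) and no filter (0.0541), and without rdES4 (-0.79, 0.172), rdES2-1 (-1.31, 0.0598), the early stomach iPS array (-1.05, 0.0664) or the stomach cells (-0.65, 0.109). Unscaled, the signals of PTGDS ran from 50.42 to 115.0 units over the 8 arrays, with liver cells at 69.44 inside the range of the pluripotent arrays.

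PTGER4 (NCBI gene 100009081), the EP4 receptor, was read by 6 probes, described here in 2 sets that were formed after their values were seen. By its brightest probe, A_04_P000062, it stood at 0.10 in liver cells and -0.16 in stomach cells, -6.66 in rdES4 (not well above background), -4.56 in rdES2-1, -4.72 and -4.55 in the liver iPS line, and -3.15 and -5.15 in the stomach line. All somatic values lay above all others, the early stomach iPS array was the highest of the rest, and the ES and iPS groups overlapped. The means were -0.03 ± 0.19 (SD, n = 2) in somatic cells, -4.39 ± 0.34 (n = 2 lines) in iPS cells and -5.61 ± 1.49 (n = 2) in ES cells.

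The PTGER4 difference was -4.36 ± 0.69 (SE), 20.6-fold lower, for iPS cells, with an adjusted p of 0.00399 in limma. For ES cells, where 1 of 2 arrays measured the probe, it was -5.58 ± 0.69 with an adjusted p of 0.0018 in limma, and -4.94 when the dim array was set to its detection limit, the lowest signal that passed the background mark there. Without rdES4 it was -4.53 and without rdES2-1 it was -6.63, both called. Normexp correction gave -2.33 for iPS and -2.38 for ES cells, and the mean over the 6 probes -3.14 and -3.10, all called. On slide 1 the liver iPS line lay -4.74 and rdES4 -6.76 from the liver cells, and on slide 2 rdES2-1 lay -4.39 from the stomach cells.

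The other probes of the first set were also lower in iPS and ES cells, but A_04_P000061 was tested only through the somatic group. Its direction is therefore no separate support. Probe A_04_P000061 was well above background only in somatic cells, at -1.44 and -1.75, and was at least 13.8-fold lower in iPS and at least 14.6-fold lower in ES cells. Probe A_04_P000063 stood at -0.52 and -0.80 in somatic cells, was measured on both early iPS arrays but no late one, and was at least 27.5-fold lower in ES cells. In the second set, A_04_P085712, A_04_P085713 and A_04_P085714, no signal exceeded 14.64 units on any array, and each probe was well above background on 3 or 4 arrays. All 3 were called lower in iPS cells, but their sizes rest on dim spots. A_04_P085713 and A_04_P085714 were tested only through the somatic group, so their direction is no separate support either. With dim arrays set to their detection limit, the differences were -0.79 for A_04_P085712, which was well above background on 1 of 4 iPS and 1 of 2 somatic arrays, and -1.38 for A_04_P085713, on 1 of 4 iPS arrays. A_04_P085714, on none of the iPS arrays, was at least 2.49-fold lower. Between ES and somatic cells A_04_P085712 differed by -0.02 ± 0.43 (adjusted p = 0.969 in limma), and the other 2 were lower, with differences of -1.27 and -1.14.

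**Figure D3:**
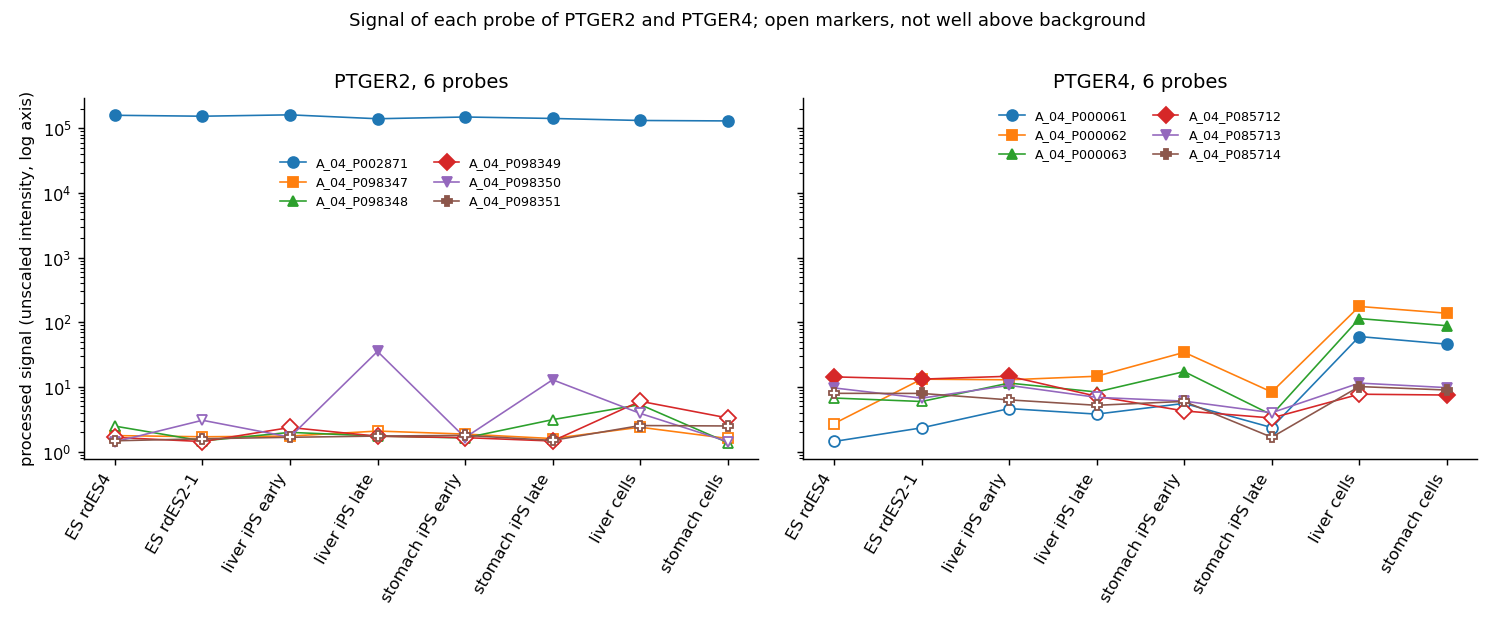
Unscaled processed signal (log axis) of each of the 6 probes of PTGER2 (left) and PTGER4 (right) on the 8 arrays; lines join 1 probe, and open markers are not well above background. One PTGER2 probe reads 129800 units or more on every array while the other 5 reach at most 35.41, and 3 PTGER4 probes are high only in liver and stomach cells.

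PTGER2 (NCBI gene 100009369), the EP2 receptor, rested on a single bright probe. A_04_P002871 stood at 9.18 in rdES4, 8.95 in rdES2-1, 8.89 and 8.68 in the liver iPS line at early and late passage, 8.93 and 8.90 in the stomach line, 9.66 in liver cells and 9.71 in stomach cells. Both somatic values were the highest, although the 8 values spanned only 1.03 log2 units. Its rank among the 43603 probes lay between 8 and 14 on every array. In unscaled units it read 158700, 153500, 161200, 140300, 149300, 141700, 131900 and 129800 in the same order of samples, so that before scaling the somatic arrays were the lowest. No spot was marked as saturated, and the highest signal of any probe was 184390 to 231528 on the 8 arrays.

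The other 5 PTGER2 probes did not share this signal. Probes A_04_P098347, A_04_P098348, A_04_P098349 and A_04_P098351 were not well above background on any array and never exceeded 6.013 units. Probe A_04_P098350 was well above background only on the late liver (35.41 units) and late stomach iPS array (12.91 units). It was at least 2.76-fold higher in late than in early iPS cells, without passing the test (adjusted p = 0.339 in limma). This probe was tested only through the late iPS group, so its direction is no separate support. Which probe follows PTGER2 RNA was not tested.

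By the bright probe PTGER2 was lower in iPS cells, with a difference of -0.83 ± 0.15 (SE), means of 8.85 ± 0.09 (SD, n = 2 lines) and 9.68 ± 0.04 (n = 2) and an adjusted p of 0.00547 in limma. In ES cells, at 9.06 ± 0.16 (n = 2), the difference was -0.62 ± 0.15 with an adjusted p of 0.0154 in limma. The direction turned with the scaling: it was 0.02 for iPS and 0.09 for ES cells after quantile normalization (adjusted p = 0.881 and 0.556 in limma), and 0.18 and 0.25 with no scaling (0.384 and 0.221). Relative to the median of all probes the iPS difference was -0.85 on the main scale and with no scaling, -0.09 after quantile normalization and -0.26 after normexp. The call was also lost with slide as a block (-0.94, adjusted p = 0.0724 for iPS cells and -0.62, 0.0781 for ES cells), with the mean of both tested probes for iPS cells (-0.26, 0.435) and without rdES2-1 for ES cells (-0.51, 0.0703).

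PTGR1 (NCBI gene 100009440), the reductase of prostaglandin breakdown, was well above background on every array by all 5 probes. Its brightest probe, A_04_P003287, stood at 3.55 in liver cells, 3.63 in stomach cells, 3.69 in rdES4, 3.48 in rdES2-1, 4.51 and 4.01 in the liver iPS line at early and late passage, and 3.80 and 3.68 in the stomach line. The early liver iPS array was the highest by all 5 probes, and somatic and ES cells overlapped. The means were 3.59 ± 0.05 (SD, n = 2) in somatic cells, 3.59 ± 0.14 (n = 2) in ES cells and 3.999 ± 0.37 (n = 2 lines) in iPS cells.

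The PTGR1 difference from somatic cells was 0.41 ± 0.21 (SE), with a 95% interval from -0.14 to 0.95, for iPS cells (adjusted p = 0.147 in limma). For ES cells it was -0.01 ± 0.21, with an interval from -0.55 to 0.54 (adjusted p = 0.976 in limma). Neither was called, and differences within these intervals could not be told from 0 with 2 samples a group. The 5 probes ranged from 0.38 to 0.49 for iPS cells and from -0.01 to 0.09 for ES cells. The iPS difference was called with no scaling (1.42, adjusted p = 0.0036) and after normexp (0.58, 0.0243), and the ES difference with no scaling (0.87, 0.026). By tissue, PTGR1 lay 0.71 above the liver cells in the liver line and 0.11 above the stomach cells in the stomach line.

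Between iPS and ES cells none of the 6 genes was called by limma, and 0% of all tested probes were called. By the brightest probes none had an unadjusted p under 0.05, a threshold at which the share of all probes was not computed. PTGS2 differed by -0.47 (95% interval -1.06 to 0.12), PTGS1 by 0.29 (-0.50 to 1.08) and PTGDS by -0.42 (-1.28 to 0.44). PTGER4 had the widest interval, 1.21 (-0.56 to 2.99), with rdES4 not well above background. PTGER2 differed by -0.21 (-0.59 to 0.16) and PTGR1 by 0.41 (-0.13 to 0.96).

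Between late and early iPS cells again none of the 6 was called by limma, where 0.0277% of all tested probes were (0.00693% higher and 0.0208% lower). By the brightest probes 1 had an unadjusted p under 0.05, again without the share of all probes at that threshold. That gene was PTGS1, with a late minus early difference of -1.40 in the liver line and -0.58 in the stomach line. Its mean difference was -0.99 (95% interval -1.82 to -0.15, adjusted p = 0.559 in limma). PTGER2 moved by -0.12 (-0.47 to 0.23), PTGR1 by -0.30 (-0.93 to 0.33), PTGDS by 0.51 (-0.33 to 1.35), PTGS2 by 0.54 (-0.45 to 1.53) and PTGER4 by -0.91 (-2.83 to 1.01). Dimmer probes with an unadjusted p under 0.05 in limma were A_04_P098350 of PTGER2 (0.00085), A_04_P041862 of PTGS2 (0.0078), and A_04_P000063 (0.0147) and A_04_P000061 (0.0357) of PTGER4. Each was not well above background at 1 or both passages. A_04_P098350 was tested only through the late iPS group, so its direction is no separate support. By the brightest probe alone the lines had opposite signs in PTGS2 (-0.28 in the liver line and 1.36 in the stomach line) and PTGER4 (0.18 and -2.00). The other 2 PTGS2 probes had the same sign in both lines, 0.20 and 0.24 by A_04_P000851, as had the other 5 PTGER4 probes, -0.46 and -2.18 by A_04_P000063, which was not well above background at late passage.

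Liver and stomach cells themselves differed by at most 0.81 log2 units in these genes by the brightest probes. PTGS1 was 0.65 higher in liver cells and PTGER4 0.27 higher, while PTGDS was 0.81, PTGS2 0.45, PTGR1 0.08 and PTGER2 0.06 higher in stomach cells. With 1 culture of each tissue these differences have no replicate check.

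Of 59 other genes of arachidonate release, prostanoid metabolism and the inflammatory signals around them, 13 had a named probe and 9 were tested. In iPS cells 6 of these 9 were lower than in somatic cells, 1 was higher and 2 were not called, against 32.4% of all tested probes lower and 34.2% higher, with a median of -2.47. ES cells gave the same counts, against 29.7% lower and 34.2% higher, with a median of -2.65. AKR1C5, IL1A and PLA2G4A were tested only because both somatic arrays passed the background mark, which favoured a lower level in iPS and ES cells in advance. Their direction therefore adds no support to these counts and medians. PLA2G4A, the cytosolic phospholipase that releases arachidonic acid, stood at -0.14 and 0.35 in liver and stomach cells and between -7.19 and -1.92 elsewhere. It was well above background on 4 of the 8 arrays. It was lower in iPS cells, with a difference of -4.79 ± 0.90 (SE, adjusted p = 0.00699 in limma), and in ES cells, with -6.28 ± 0.90. With dim arrays set to their detection limit these values were -4.60 and -5.38, and after normexp -2.36 and -2.52, both called. Without the early stomach iPS array, which leaves the late one at -1.92 for that line, the iPS value was -3.88 (adjusted p = 0.0528). PLA2G6, a calcium-independent phospholipase, was lower in iPS and ES cells, with differences of -1.14 ± 0.34 and -1.29 ± 0.34 (SE). Its iPS call was lost with the line of origin as a block (adjusted p = 0.0564 in limma), slide as a block (-1.13, 0.16), quantile normalization (-0.94, 0.0573) and no scaling (-0.13, 0.733), and without the late liver iPS array (-0.97, 0.0832), the liver cells (-1.28, 0.0592) or the stomach cells (adjusted p = 0.108). Its ES call was lost with no scaling (-0.42, 0.279) and slide as a block (-1.29, 0.0652), and without rdES2-1 (-0.83, 0.0549) or the stomach cells (-1.15, 0.0798).

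Downstream, AKR1C5, an aldo-keto reductase, was well above background only in somatic cells, at 0.05 and -0.84, and was at least 31.7-fold lower in iPS and at least 33.6-fold lower in ES cells. After normexp correction its differences were -2.22 and -2.15, both called. CYP2J2, which makes epoxides of arachidonic acid, was lower in both, with differences of -2.47 ± 0.28 (SE) and -2.65 ± 0.28. CBR1, a carbonyl reductase that can act on prostaglandin E2, was higher by 0.76 ± 0.22 in iPS and 0.73 ± 0.22 in ES cells by its brightest probe. Its other 2 probes read 0.24 and -0.11 for iPS and 0.11 and -0.22 for ES cells, none of them called. The CBR1 call was lost with slide as a block (adjusted p = 0.104 for iPS and 0.0549 for ES cells in limma), without the late liver iPS array (0.0587 and 0.0518), the liver cells (0.0933 and 0.106) or the stomach cells (0.0504 and 0.0568), and for ES cells without rdES2-1 (0.50, 0.137). AKR1B1, which can make prostaglandin F2 alpha, differed by 0.87 ± 0.36 (adjusted p = 0.0808 in limma) for iPS and 0.79 ± 0.36 (0.106) for ES cells, and by its other probe 0.94 (0.0436) and 0.82 (0.0668). By the first probe it was called in both without the liver cells (1.39, 0.00424 and 1.31, 0.005), with no scaling (1.88, 0.0055 and 1.67, 0.00938) and after normexp (1.06, 0.0177 and 0.93, 0.0315), and for iPS cells with 8 arrays in 4 groups (0.0314). EPHX1, an epoxide hydrolase, differed by -0.26 in both comparisons and by 0.75 and 0.62 with no scaling.

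Among the cytokines of the list, IL1A, an inducer of PTGS2 in many cells, stood at 2.91 in liver cells, -0.45 in stomach cells and between -7.75 and -3.36 elsewhere. Its brightest probe was well above background on 4 of the 8 arrays. It was lower in iPS cells, with a difference of -7.61 ± 1.80 (SE, adjusted p = 0.0152 in limma), -6.18 with dim arrays set to their detection limit, and -5.93 (0.054) without the liver cells. For ES cells the difference was -6.79 ± 1.80, and the call was lost without rdES2-1 (-4.60, adjusted p = 0.0813) or without the liver cells (-5.11, 0.0811). After normexp the IL1A differences were -3.76 and -3.56, both called. IL1RN, the interleukin-1 receptor antagonist, stood at 3.47 and 5.69 in liver and stomach cells and was lower in iPS and ES cells, with differences of -7.92 ± 0.73 and -7.68 ± 0.73 (SE). The IL1RN differences were -9.03 and -8.79 without the liver cells and -6.81 and -6.57 without the stomach cells. The 4 genes with named but untested probes were ALOX15, IL1B, PTGER3 and TNF. PTGER3, the EP3 receptor, was well above background on 1 array. None of the 9 tested genes was called by limma between iPS and ES cells or between late and early passage. At an unadjusted p under 0.05 there were 0 and 1, and the share of all probes at that threshold was not computed.

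**Figure D4:**
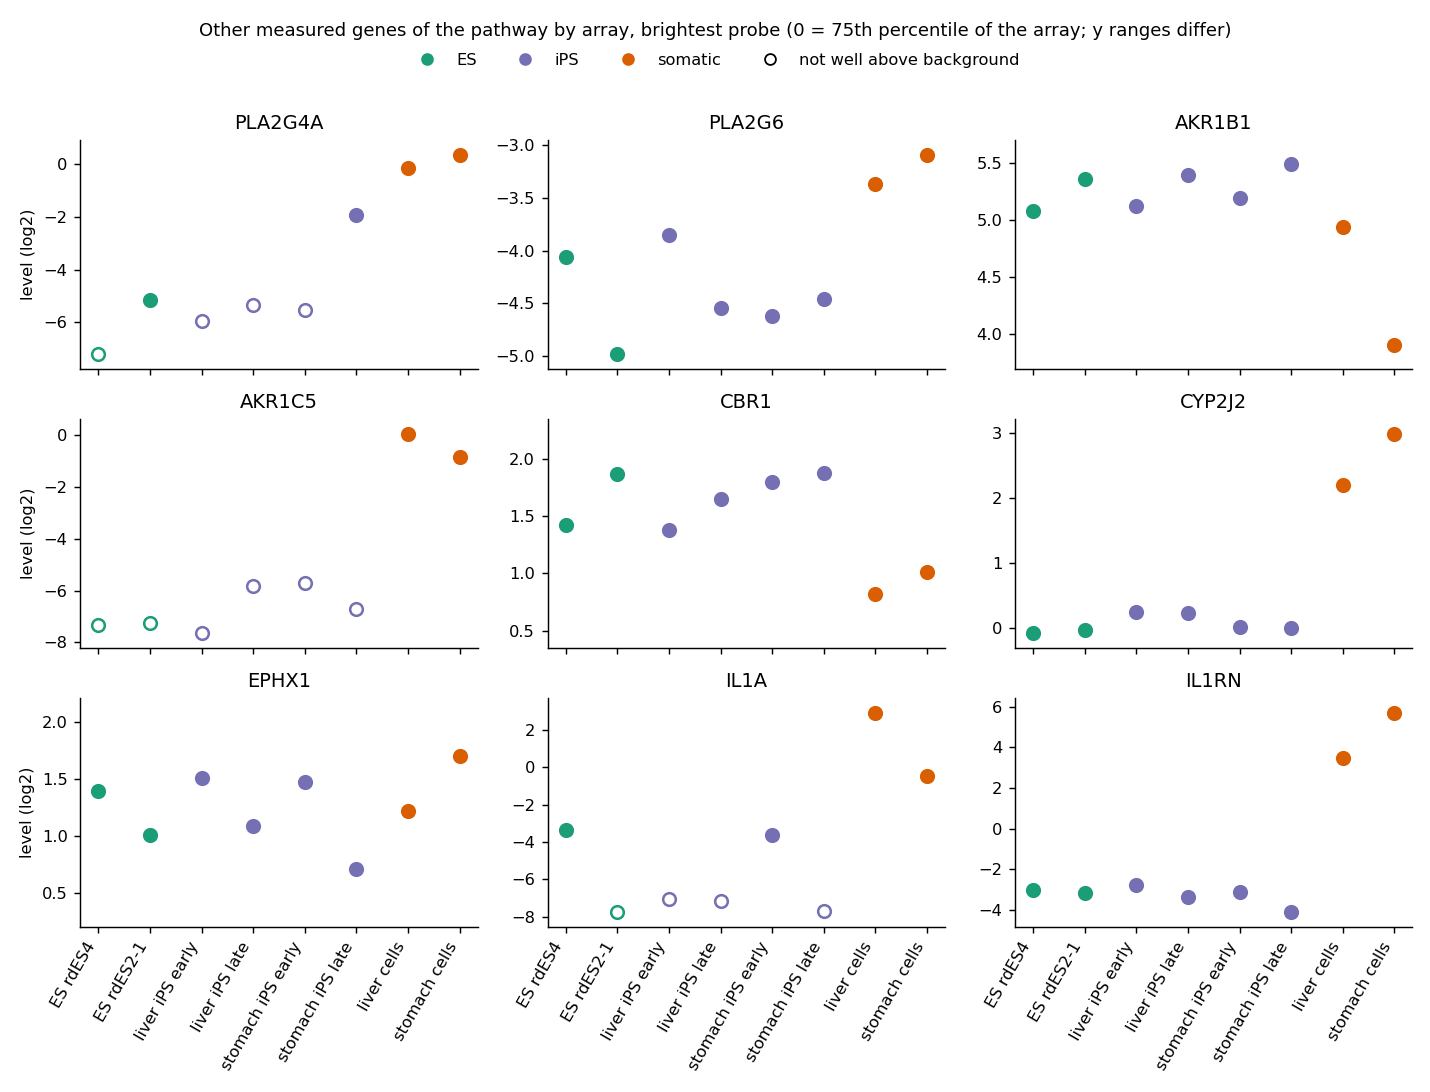
Level of the other pathway genes by their brightest probe on the 8 arrays (log2 relative to the 75th percentile of that array); points are single arrays, and open points are not well above background. IL1RN, PLA2G4A and CYP2J2 are highest in both somatic samples, and AKR1B1 lies between 3.91 and 5.49 on all arrays.

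The level of each member was also set beside the other named genes over the 8 arrays, as a description, with Pearson's r over arrays that share their scaling and, for the iPS lines, their origin. Of 505 genes compared, those most like PTGS2 were IL18 (r = 0.998) and TLR2 (r = 0.996), and those most like PTGS1 were F3 (0.997) and TPM2 (0.994). Over the 6 ES and iPS arrays alone they were 0.886 and 0.649 for PTGS2 and 0.958 and 0.927 for PTGS1, where TPM2 was well above background on 1 of the 6 arrays. PTGER4 was closest to TNFAIP6 (0.982, and 0.916 over the 6 arrays) and NDEL1 (0.968 and 0.869). PTGDS was closest to GC (0.970 and 0.948) and IL15 (0.957 and 0.796). For the bright PTGER2 probe, SLC12A4 was among the closest (0.986 and 0.945). PTGR1 was closest to EIF2B2 (0.902 and 0.929) and TPD52 (0.824 and 0.845).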

How the data were processed

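Spot intensities were deposited as read, per the file headers, by Agilent Feature Extraction 10.5.1.1, with the background subtracted and no scaling between arrays. The authors' deposited log2 value table matched these intensities scaled to each array's 75th percentile and centred per probe (r = 1.0 on every array, column medians -0.042 to 0.342), and it served as an alternative. Each array held 45220 spots, 1417 of them controls. Spots of 50 repeated probes were averaged, 19 flagged probes were left out and no spot was saturated. The number of arrays limits the precision.

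Probes were named through RefSeq accessions and a gene table of another rabbit assembly, used for names only, which named 1933 probes of 680 genes, 511 of them tested. A gene was read by its probe with the highest mean level. log2 signals minus the array's 75th percentile entered a two-sided test in limma 3.58.1 (R 4.3.3), with Benjamini-Hochberg adjustment over 28854 probes and a threshold of 0.05. In the 3 comparisons among iPS, ES and somatic cells, early and late arrays of a line were averaged, giving 6 samples in 3 groups. Late and early passage were compared over 8 arrays in 4 groups. The fit of iPS against somatic cells was tested on simulated data with independent arrays. Scaling, background correction, a shared effect of the line and the other comparisons were not covered.

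The text names all 6 members, every listed pathway gene with a named probe, and for each member the 2 most correlated named genes, of which 1 is not reported here. Members and lists were chosen with earlier results of these data known. The labels give the same line at both passages, and deviations of early and late arrays from their group means correlated at 0.224, those of early iPS and somatic arrays at 0.021 and of late iPS and somatic arrays at 0.013. Alternatives were quantile normalization, no scaling, normexp (offset 50, on median signals because the files hold no mean signal), no filter, the authors' table, the mean of a gene's probes, slide or origin as a block, 8 arrays in 4 groups, and leaving out each array. No sequences are printed, since the tables used here hold none.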

Additional observations from a re-analysis of the deposited data

Results flagged for a closer look

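By the brightest probe of PTGS2 and of PTGER4, the passage difference had opposite signs in the liver and stomach iPS lines. The difference between the lines was not tested, since each line had 1 array a passage. By A_04_P000852, PTGS2 was -0.28 (late minus early, log2) in the liver line and 1.36 in the stomach line. By A_04_P000062, PTGER4 was 0.18 in the liver line and -2.00 in the stomach line. The opposite signs rest on these probes: the other 2 probes of PTGS2 and the other 5 of PTGER4 had the same sign in both lines.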

How the results depend on the processing

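Over the 6 genes and 4 comparisons, 372 of 402 alternative values kept direction and side of the threshold. Another 16 changed sign, whatever their call. Of those that kept their sign, 12 lost the call and 2 gained it. The 16 include the PTGER2 calls against somatic cells lost with quantile normalization and no scaling. They also include the PTGR1 call gained in ES against somatic cells with no scaling. The cause of these changes was not tested. Many values could hardly differ, so the share does not measure robustness. The authors' table holds the main scale, leaving out an ES array leaves iPS against somatic differences unchanged, and PTGS1 and PTGDS have 1 probe. In 2 of the 4 comparisons no member was called. The count called in ES against somatic cells was 3 with quantile normalization and 3 to 5 over left-out arrays, lowest without rdES2-1. PTGER2 changed sign against somatic cells with quantile normalization (0.02 iPS, 0.09 ES) and no scaling (0.18, 0.25). With the mean of its probes it changed sign in iPS against ES cells (0.58) and late against early passage (1.79). That mean includes the dim probe tested only through late iPS cells. PTGR1 in ES against somatic cells was 0.04 (quantile), 0.87 (no scaling), 0.13 (normexp), 0.03 (mean of probes) and -0.11 to 0.09 over left-out arrays. EPHX1 was 0.75 and 0.62 with no scaling. PTGER4 in iPS against ES cells was -0.04 with the mean of probes. Over left-out arrays PTGS1 ranged from -0.06 to 0.64 in iPS against ES cells, and between passages PTGS2 ranged from -0.04 to 1.12 and PTGR1 from -0.66 to 0.05. With the replicate block, the line of origin, 5, 5, 0 and 0 genes were called in the 4 comparisons and no member changed its call. Of all tested probes, slide as a block called 9932 in iPS against somatic cells (19223 without). In iPS against ES cells no scaling called 2 and 8 arrays in 4 groups 6. Between passages no filter and the slide block called 0 and left-out arrays 0 to 1, against 8. Probes near background, such as those of PTGER4 in pluripotent cells, give differences whose size depends on the background correction.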
